A study of Mus musculus with 12 samples.

Results

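The genes described here encode the ion channels that set the excitability of neurons, and the GABA-A receptors that inhibit them. They were chosen as a family with earlier results of these data known, and the members were then taken by gene symbol alone: every row of the count table named Scn, Cacna, Cacnb, Cacng, Kcn, Hcn, Gabra, Gabrb, Gabrg or Gabrd followed by its member number. The rule found 101 of the 12145 rows, namely 7 sodium channel genes, 22 calcium channel genes, 57 potassium channel genes, 4 HCN genes and 11 GABA-A receptor genes. The antisense gene Kcnq1ot1 was to be left out and had no row under that symbol. Gabrd, the delta subunit of the GABA-A receptor, was not among the rows.

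RNA came from cortical cultures of C57BL6 mouse embryos at stage E16.5 to E17.5. All cultures, controls included, were infected with a lentivirus on day 6 in vitro at a total multiplicity of infection of 2, carrying either miR-29 or nothing (empty virus). On day 14 they went through oxygen-glucose deprivation (OGD), a culture model of ischemia, for 3 h with 4 h of recovery, or through a sham rinse in the same buffer at normal oxygen. The 4 groups were OGD-miR-29, OGD-empty, sham-miR-29 and sham-empty (empty virus and no OGD), each with 3 cultures dissected on 3 distinct days. The deposited column of sham-empty replicate 3 did not hold read counts, so sham-empty had 2 libraries and the study 11. That column summed to 22859, and its value equalled the number of same-strand annotated genes in the gene and 10 kb downstream for 92 of the 101 members.

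Voltage-gated sodium channels carry the upstroke of the action potential, and voltage-gated calcium channels couple depolarization to transmitter release and gene expression. Potassium channels repolarize the membrane and hold it at rest, and HCN channels carry a depolarizing current that opens on hyperpolarization. GABA-A receptors are pentamers of alpha, beta and gamma subunits that form a chloride channel and give fast inhibition in cortex. Neurons depolarize when oxygen and glucose are withdrawn.

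A microRNA pairs through its seed, bases 2 to 8 of the mature strand, with the 3′ untranslated regions (3′UTRs) of target mRNAs. The mature strands of the miR-29 family are shown because the virus carried miR-29 and the family shares 1 seed, in capitals, which defines the sites searched below; the labels do not say which family member was expressed. The sequences are those of RefSeq on GRCm38.p6.
mmu-miR-29a-3p: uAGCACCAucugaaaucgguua
mmu-miR-29b-3p: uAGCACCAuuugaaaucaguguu
mmu-miR-29c-3p: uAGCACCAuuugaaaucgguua
The strands differ only after the seed, so the 3 have the same 7-base seed matches. MicroRNA levels were not analysed here, so the expression of the virus was not checked from these libraries.

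Counts were low. Totals ran from 1337564 to 6616920 per library, and rows of the mitochondrial genome took 57.6% to 84.1% of them. All 101 members passed the filter on low counts, but the median count per member was 12 in sham-empty replicate 1 and at most 96, in OGD-empty replicate 1. Whether reads were shared between neighbouring genes is not stated: 23 members had no annotated neighbour within the gene or 10 kb downstream, whereas 33 had a neighbour with at least 0.5 of their own count, and the neighbour is named beside those described below. Only 48 members had a gene span (first to last annotated base) of at least 100 kb, or 47.5%, against 15.8% of all tested genes; the median span was 91.6 kb against 23.0 kb. OGD-empty replicate 2 stood apart, with the lowest mitochondrial share (57.6%) and the highest level of long genes. A smooth of expression on gene span placed genes of 500 kb at 1.81 above their mean (log2) in that library, at 0.35 and 0.50 in OGD-empty replicates 1 and 3, at -0.59 to -0.50 in OGD-miR-29 and at -0.45 to 0.17 in the sham libraries. Values without that library are given beside the members where they moved by over 1.5 times or the call ended, and beside others of the larger changes.

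Summed over all members, channel and GABA-A receptor genes were highest in OGD-empty. They took 0.777% and 0.723% of the non-mitochondrial counts in sham-empty, 0.732%, 0.955% and 0.709% in sham-miR-29, 1.06%, 2.00% and 1.11% in OGD-empty against 0.670%, 0.615% and 0.545% in OGD-miR-29. The OGD-empty libraries were above every other library, and the OGD-miR-29 libraries were below every other library. In bulk RNA, fewer cells of a type and less RNA per cell cannot be told apart.

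**Figure D1:**
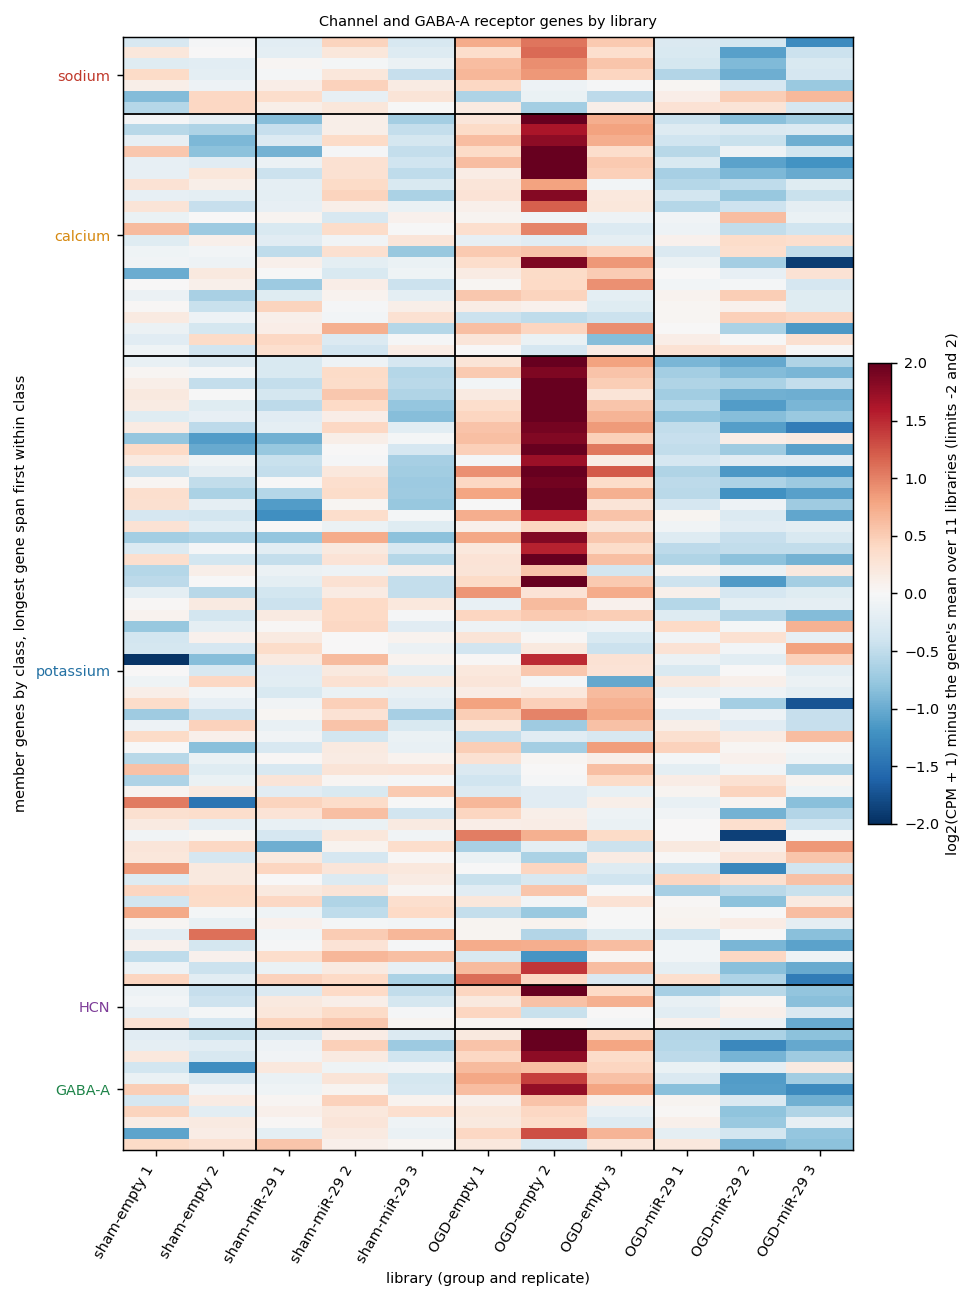
Level of each of the 101 members (unlabelled rows, longest gene span first within each class) in each of the 11 libraries (columns), as log2(CPM + 1) minus the gene's mean, red above and blue below. The long genes at the top of each class are reddest in OGD-empty replicate 2 and mostly blue in the 3 OGD-miR-29 libraries, while short genes at the bottom of each class vary less with group.

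After OGD with empty virus, 8 members rose and 0 fell, in a model fitted to all genes (edgeR quasi-likelihood test, adjusted p under 0.05). Over all genes 1.48% were called higher in this comparison and 3.61% lower. Of the 48 members with a gene span of at least 100 kb 6 were called higher, and of the 53 shorter ones 2. Among all tested genes of at least 100 kb 6.15% were called higher and 0.0531% lower, and among shorter ones 0.588% and 4.3%. The members called were Scn2a1, Cacna1c, Cacna1e, Kcnq1, Kcnc1, Kcna5, Gabra3 and Gabrb2, and the median log2 difference over the 101 members was 0.64 against 0.02 over all tested genes. With the replicate number as a block, taken as the culture day, 25 members were called higher and 1 lower, where 5.69% and 5.61% of all genes were. In 47 members every OGD-empty library was above both sham-empty libraries and in 6 below, where 22.0% and 21.6% of all genes were so placed. Leaving out sham-empty replicate 1 or sham-empty replicate 2 left 0 members called, leaving out OGD-empty replicate 1 gave 26, leaving out OGD-miR-29 replicate 1 or 2 gave 5 each, and leaving out OGD-empty replicate 2 gave 9.

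Scn2a1, an older symbol of Scn2a (chromosome 2, 65620771 to 65767447, plus strand, in GENCODE M21 on mm10, as all gene positions here), encodes the Nav1.2 pore of the axon initial segment. Its TMM-scaled CPM (counts relative to library size) were 35.8 and 36.5 in sham-empty, 43.6, 41.1 and 38.8 in sham-miR-29, 65.3, 81.7 and 62.7 in OGD-empty against 33.1, 22.4 and 34.1 in OGD-miR-29. The 3 OGD-empty libraries lay above all 8 others, and OGD-empty exceeded sham-empty by 0.95 ± 0.24 (log2, SE; edgeR adjusted p = 0.0296). With a trend of expression on gene span removed and the block, the difference was 0.31 and not called (edgeR adjusted p = 0.485). Scn8a, the Nav1.6 pore, was at 12.9 and 16.2 CPM in sham-empty and 28.0, 35.7 and 24.1 in OGD-empty. The groups did not overlap, but the call depended on the block: the difference of 0.98 had an edgeR adjusted p of 0.0892 without it and 1.17 with 0.0176 with it.

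Among calcium channels the called pores were Cacna1c, the L-type Cav1.2, and Cacna1e, the R-type Cav2.3. Cacna1c (chromosome 6, 118587240 to 119196418, minus strand) was at 10.9 and 10.4 CPM in sham-empty against 21.9, 53.3 and 29.5 in OGD-empty, 1.68 ± 0.38 higher (log2, SE; edgeR adjusted p = 0.017). Cacna1e was at 21.9 and 12.7 CPM in sham-empty against 38.1, 87.2 and 41.3 in OGD-empty, 1.72 ± 0.42 higher (edgeR adjusted p = 0.0333). In both genes OGD-empty replicate 2 was the highest library, and without it the differences were 1.28 and 1.31 with edgeR adjusted p = 0.0177 and 0.00984. Once a trend of expression on gene span was removed with the block in the fit, they were 0.45 and 0.67 and neither was called (edgeR adjusted p = 0.446 and 0.146).

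Of the potassium channel genes, Kcnq1, Kcnc1 and Kcna5 were called. Kcna5 (chromosome 6, 126532551 to 126535412, minus strand), which encodes the delayed rectifier Kv1.5, spans 2.86 kb. It was at 26.9 and 21.4 CPM in sham-empty, 26.5, 33.1 and 25.7 in sham-miR-29, 45.7, 79.5 and 45.0 in OGD-empty against 25.5, 15.8 and 13.9 in OGD-miR-29. OGD-empty was higher than every other library, by 1.24 ± 0.31 over sham-empty (log2, SE; edgeR adjusted p = 0.0297), and the difference became 1.77 with the span trend removed and the block (edgeR adjusted p = 0.00102). Kcnc1, the fast-repolarizing Kv3.1, was at 7.96 and 9.84 CPM in sham-empty against 19.6, 28.0 and 23.6 in OGD-empty, 1.36 ± 0.35 higher (edgeR adjusted p = 0.0318); its neighbour Sergef held 1.02 times its count. Kcnq1 was at 16.9 and 20.3 CPM in sham-empty against 44.3, 124.0 and 55.2 in OGD-empty, 1.97 ± 0.48 higher (edgeR adjusted p = 0.0421). The antisense transcript Kcnq1ot1 lies within Kcnq1, and the row KCNQ1OT1_2, a piece of it, held 2 and 2 counts in sham-empty and 41, 27 and 14 in OGD-empty, so which strand the Kcnq1 reads came from is uncertain.

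Gabrb2, a beta subunit of the GABA-A receptor, was at 29.8 and 26.6 CPM in sham-empty against 56.8, 87.2 and 49.3 in OGD-empty. The groups were apart, and the difference was 1.20 ± 0.30 (log2, SE; edgeR adjusted p = 0.0296). Gabra3, an alpha subunit, was at 2.98 and 1.16 CPM in sham-empty and 6.95, 6.77 and 5.90 in OGD-empty, 1.82 ± 0.52 higher (edgeR adjusted p = 0.0465), with 5 counts in all behind the sham-empty value. With the span trend removed and the block, Gabrb2 was at 0.48 and Gabra3 at 1.02 and neither was called (edgeR adjusted p = 0.253 and 0.365). The call of Gabra3 also ended with limma-voom and without any 1 of the 11 libraries other than sham-miR-29 replicate 2 and OGD-empty replicate 2. Besides the loss of all calls without a sham-empty library, those of Kcnq1 and Cacna1e ended without OGD-miR-29 replicate 1 or 2, that of Kcnq1 also without OGD-miR-29 replicate 3 or sham-miR-29 replicate 1, and that of Kcnc1 without OGD-empty replicate 3; Kcnq1 and Kcnc1 were not called by limma-voom. By class, 5 of 7 sodium, 19 of 22 calcium, 43 of 57 potassium, 4 of 4 HCN and 9 of 11 GABA-A genes had a positive difference. Most of these did not pass the test. The difference was positive in 47 of 48 members of at least 100 kb and in 33 of 53 shorter ones. Over all tested genes it was positive in 1710 of 1885 and in 4377 of 10040 of those lengths.

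With the block all 8 calls remained and 18 were added. Among the members named by the rule and described here, the blocked log2 difference was 1.59 for Cacna2d1 (edgeR adjusted p = 0.0197), 1.95 for Kcnb2 (0.0354), 1.21 for Kcnma1 (0.0202), 1.66 for Kcnn2 (0.0294), 1.05 for Gabra2 (0.0443) and 1.78 for Gabrb1 (0.0317), beside Scn8a above. OGD-empty replicate 2 was the highest library for each of these genes. Kcnb2 was at 19.5, 92.6 and 23.6 CPM in OGD-empty against 11.9 and 12.7 in sham-empty. Gabrb1 was at 42.9, 141.4 and 49.9 against 24.9 and 24.3. The block was not fitted without that library, and without the block none of these genes was called with it or without it. None was called once the span trend was removed with the block. Kcns3 was also added, with 0 and 1.16 CPM in sham-empty, too few counts for a fold. The member called lower was Kcnab3, a Kv beta subunit gene named after its value was seen (-1.08, edgeR adjusted p = 0.0349).

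**Figure D2:**
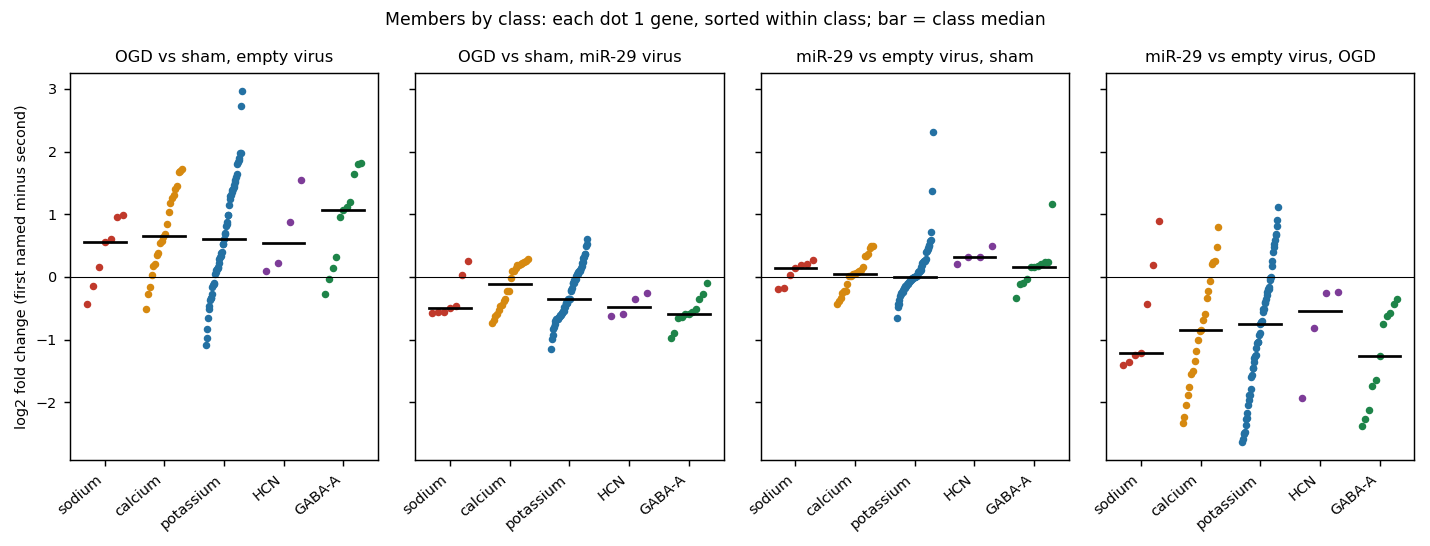
Log2 fold change of each member (dots, sorted within class) in the 4 comparisons, with the class median as a bar. After OGD with empty virus all 5 class medians lie above 0, from 0.54 to 1.07, and with miR-29 against empty virus after OGD all 5 lie below 0, from -1.27 to -0.54.

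With miR-29 against empty virus after OGD, 48 members fell and 4 rose. Over all genes 19.9% were called lower and 17.2% higher. The median log2 difference of the members was -0.84, against 0.02 over all tested genes, and 83 of 101 members were below 0. The falls covered 4 of 7 sodium, 11 of 22 calcium, 26 of 57 potassium, 1 of 4 HCN and 6 of 11 GABA-A genes. This comparison and the last share the 3 OGD-empty libraries, so they are not independent. Without OGD-empty replicate 2, 46 members were called lower and 6 higher, with a median of -0.70. With the block, 52 were lower and 6 higher, where 20.9% and 17.8% of all genes were. The OGD groups did not overlap in 59 members that were lower and 9 that were higher with miR-29, where 25.2% and 25.0% of all genes did not. Leaving out OGD-miR-29 replicate 3 left 32 members called.

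All 4 pore-forming sodium channel genes in the table fell, by 1.22 to 1.4 on the log2 scale. Scn1a, the Nav1.1 pore, was at 27.8 and 23.7 CPM in sham-empty, 20.5, 27.7 and 19.5 in sham-miR-29, 30.3, 52.8 and 30.0 in OGD-empty against 18.9, 10.6 and 17.3 in OGD-miR-29. The OGD groups did not overlap, and the difference was -1.24 ± 0.26 (log2, SE; edgeR adjusted p = 0.00159). Scn3a, the Nav1.3 pore that is prominent in embryonic brain, was at 28.1, 32.5 and 23.6 CPM in OGD-empty against 11.2, 8.27 and 13.5 in OGD-miR-29, a difference of -1.36 ± 0.25 (edgeR adjusted p = 0.000781). For Scn8a the OGD-miR-29 values were 13.2, 12.6 and 6.25 CPM, -1.4 ± 0.27 (edgeR adjusted p = 0.00105), and for Scn2a1 the difference was -1.22 ± 0.20 (edgeR adjusted p = 0.000576). Scn1a, Scn2a1 and Scn3a all lie on chromosome 2 between 65457118 and 66440840, and each spans over 100 kb.

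The sodium channel beta subunits, small membrane proteins that modulate the pores, are encoded by short genes. Scn2b rose: it was at 9.95 and 25.5 CPM in sham-empty, 24.6, 16.9 and 22.9 in sham-miR-29, 12, 17.2 and 12.9 in OGD-empty against 20.8, 27.2 and 30.3 in OGD-miR-29, 0.89 ± 0.27 higher than with empty virus after OGD (log2, SE; edgeR adjusted p = 0.0143). The overlapping Gm10684 held 1.03 times its count, and the 2 sham-empty libraries were on either side of the OGD-empty range. With the span trend removed and the block, Scn2b was at 0.57 and not called (edgeR adjusted p = 0.0613). Scn3b, named after its value was seen and beside Gramd1b at 1.21 times its count, differed by -0.44 ± 0.23 (edgeR adjusted p = 0.138).

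Among the 9 calcium channel pores, 5 fell, of the L, N, P/Q and R types. Cacna1a, the P/Q-type pore of presynaptic terminals (Cav2.1), was at 26.9 and 23.7 CPM in sham-empty, 19.0, 28.8 and 17.49 in sham-miR-29, 25.9, 38.8 and 20.9 in OGD-empty against 14.3, 15 and 18.3 in OGD-miR-29, -0.86 ± 0.25 (log2, SE; edgeR adjusted p = 0.0123). Its N-type partner Cacna1b (Cav2.2) went from 32.0, 69.1 and 34.8 to 19.7, 22.1 and 26.0 CPM, -1.0 ± 0.27 (edgeR adjusted p = 0.00815), or -0.61 without OGD-empty replicate 2 (edgeR adjusted p = 0.0312). Cacna1c was at 13.6, 13.4 and 13.5 CPM in OGD-miR-29, within the range of the sham groups (10.4 to 18.1), a difference from OGD-empty of -1.34 ± 0.28 (edgeR adjusted p = 0.00178). Cacna1e, at 18.4, 17.7 and 12 CPM in OGD-miR-29, differed by -1.75 ± 0.33 (edgeR adjusted p = 0.00151). The T-type pores Cacna1g, Cacna1h and Cacna1i, at -0.33, -0.23 and -0.69, were not called; they and Cacna1d, the fifth pore that fell (-1.55, edgeR adjusted p = 0.0438, and -0.82 without OGD-empty replicate 2), were named after their values were seen.

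Cacna1f, the L-type pore known from the retina, rose by 0.80 ± 0.19 (log2, SE; edgeR adjusted p = 0.00419), from 44.5, 42.0 and 44.5 CPM in OGD-empty to 61.9, 84.7 and 81.7 in OGD-miR-29. The downstream Syp, which encodes the synaptic vesicle protein synaptophysin, held 2.96 times its count, and their counts moved together from library to library: Cacna1f had 288, 93 and 83 counts in OGD-empty where Syp had 787, 282 and 247. How reads in both regions were assigned is not stated.

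Of the 13 calcium channel auxiliary genes, 6 fell: Cacna2d1, Cacna2d3, Cacnb2 and Cacnb4, each of over 100 kb, and the shorter Cacng3 and Cacng8, the last named after its value was seen. Cacna2d1, the alpha2delta subunit that binds gabapentin, was at 32.8 and 31.3 CPM in sham-empty, 33.7, 45.7 and 27.5 in sham-miR-29, 57.1, 153.0 and 53.1 in OGD-empty against 29.4, 16.9 and 15.4 in OGD-miR-29. The OGD groups were apart, by -2.04 ± 0.43 (log2, SE; edgeR adjusted p = 0.00567), and by -1.39 without OGD-empty replicate 2. Cacna2d3 (-2.23 ± 0.63, edgeR adjusted p = 0.0262) and the beta subunits Cacnb2 (-2.34 ± 0.67, edgeR adjusted p = 0.0272) and Cacnb4 (-1.51 ± 0.46, edgeR adjusted p = 0.0292) also fell. These 3 rested heavily on OGD-empty replicate 2, where Cacnb2 was at 126.0 CPM against 23.6 and 30.0 in replicates 1 and 3; without it the differences were -1.16, -1.19 and -0.80, all still called. The neighbour Arl5a held 0.639 of the count of Cacnb4.

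Cacng3, which like Cacng8 encodes a regulator of AMPA receptors rather than of calcium channels, was at 8.34, 25.7 and 12.3 CPM in OGD-empty against 5.69, 3.54 and 0.962 in OGD-miR-29, -1.88 ± 0.45 (log2, SE; edgeR adjusted p = 0.00635). Cacng2, stargazin, was at 7.10, 11.7 and 4.29 CPM in OGD-empty against 4.96, 3.54 and 3.85 in OGD-miR-29. The groups overlapped and the difference of -0.84 ± 0.37 was not called (edgeR adjusted p = 0.0774).

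Potassium channels gave most of the falls, 18 of them among the 29 voltage-gated pores. Kcnq1, Kcnq3 and Kcnq5 (the last outside the naming rule, and added with its value seen) encode Kv7 channels, and Kcnq3 contributes to the M-current that restrains repetitive firing. Kcnq3 was at 24.9 and 12.2 CPM in sham-empty, 12.9, 25.4 and 11.6 in sham-miR-29, 34.7, 120.0 and 32.7 in OGD-empty against 13.2, 7.88 and 8.65 in OGD-miR-29, a difference after OGD of -2.58 ± 0.62 (log2, SE; edgeR adjusted p = 0.0135) and of -1.72 without OGD-empty replicate 2. Kcnq1 fell by 2.64 on the log2 scale (SE 0.40; edgeR adjusted p = 0.000932), to 14.9, 9.85 and 9.62 CPM, with the same doubt over its antisense gene, and Kcnq5 was at -1.88 (edgeR adjusted p = 0.0442), or -0.84 without OGD-empty replicate 2.

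Kcnd2, which encodes Kv4.2 and carries the dendritic A-type current, and Kcnip4, which encodes a cytoplasmic subunit of Kv4 channels, both fell. Kcnip4, the longest gene of the set (chromosome 5, 48389502 to 49524907, minus strand, 1140 kb), was at 52.7 and 48.0 CPM in sham-empty, 47.4, 54.6 and 46.3 in sham-miR-29, 70.1, 381.0 and 103.0 in OGD-empty against 30.7, 28.4 and 38.5 in OGD-miR-29. Each OGD-empty library was above, and each OGD-miR-29 library below, every sham library; the 2 OGD groups differed by -2.50 ± 0.60 (log2, SE; edgeR adjusted p = 0.0135). Kcnd2 went from 58.1, 284.0 and 61.6 to 31.2, 26.0 and 25.5 CPM, -2.27 ± 0.66 (edgeR adjusted p = 0.0304). Much of both sizes came from 1 library: without OGD-empty replicate 2 they were -1.44 and -1.13, still called.

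The delayed rectifier pore gene Kcnb2 (Kv2.2), on a span of 436.0 kb, went from 19.5, 92.6 and 23.6 to 7.90, 7.48 and 8.17 CPM, -2.49 ± 0.64 (edgeR adjusted p = 0.0173). Without OGD-empty replicate 2, Kcnb2 was at -1.45 and still called.

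Of the 6 Kcnma, Kcnn, Kcnt and Kcnu genes, grouped by symbol as the families with calcium- or sodium-activated channels, 4 fell. Kcnma1, the large-conductance BK channel, was at 63.7 and 60.2 CPM in sham-empty, 49.7, 80.7 and 41.4 in sham-miR-29, 89.3, 228.0 and 92.2 in OGD-empty against 38.4, 33.5 and 32.2 in OGD-miR-29, -1.96 ± 0.36 (log2, SE; edgeR adjusted p = 0.00185). The small-conductance SK channel gene Kcnn2 went from 12.2, 32.5 and 15 to 5.33, 3.15 and 2.40 CPM, -2.25 ± 0.40 (edgeR adjusted p = 0.000879). The others, named after their values were seen, were Kcnt2 (-2.37, edgeR adjusted p = 0.0109, and -1.56 without OGD-empty replicate 2), a sodium-activated channel, and the SK gene Kcnn3 (-0.92, edgeR adjusted p = 0.026). For Kcnma1 the OGD-miR-29 libraries were the lowest of all 11, and for Kcnn2 they overlapped with the lower sham-empty library, at 5.21 CPM.

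Of the inward rectifiers and leak channels, which set the resting potential, 2 of 6 and 1 of 7 fell, and 1 of each rose. Those that fell, named after their values were seen, were Kcnj3 (-2.05, and -1.20 without OGD-empty replicate 2) and Kcnj6 (-1.60), of the channels opened by G proteins, and the leak channel gene Kcnk9 (-1.27), with edgeR adjusted p = 0.0154, 0.0173 and 0.0068. Kcnj10 (Kir4.1), best known as the potassium channel of astrocytes and beside Pigm at 0.741 of its count, was at 7.41, 2.71 and 9.65 CPM in OGD-empty against 7.16, 5.12 and 4.81 in OGD-miR-29, with no call (-0.16 ± 0.35, edgeR adjusted p = 0.746). Kcnj14 rose from 7.72, 8.58 and 8.04 to 15.1, 13.8 and 16.8 CPM, by 0.91 ± 0.24 (log2, SE, edgeR adjusted p = 0.00677). It was not called once the span trend was removed, with or without the block. Its neighbour Cyth2 held 1.12 times its count, in near-equal numbers in each library (Kcnj14 50, 19 and 15 counts in OGD-empty against 61, 23 and 18). Kcnk1, the leak channel TWIK-1, had no annotated neighbour in the table and rose from 6.64, 8.13 and 7.5 to 12.3, 11 and 15.4 CPM, by 0.81 ± 0.25 (edgeR adjusted p = 0.0158); the OGD groups did not overlap, and sham-empty was at 12.9 and 10.4 CPM.

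Of the HCN genes, Hcn2, on a span of 19.5 kb and beside Polrmt at 0.751 of its count, was at 14.1, 7.23 and 10.2 CPM in OGD-empty against 8.63, 11 and 8.17 in OGD-miR-29, and the groups overlapped (-0.26 ± 0.27, edgeR adjusted p = 0.466).

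**Figure D3:**
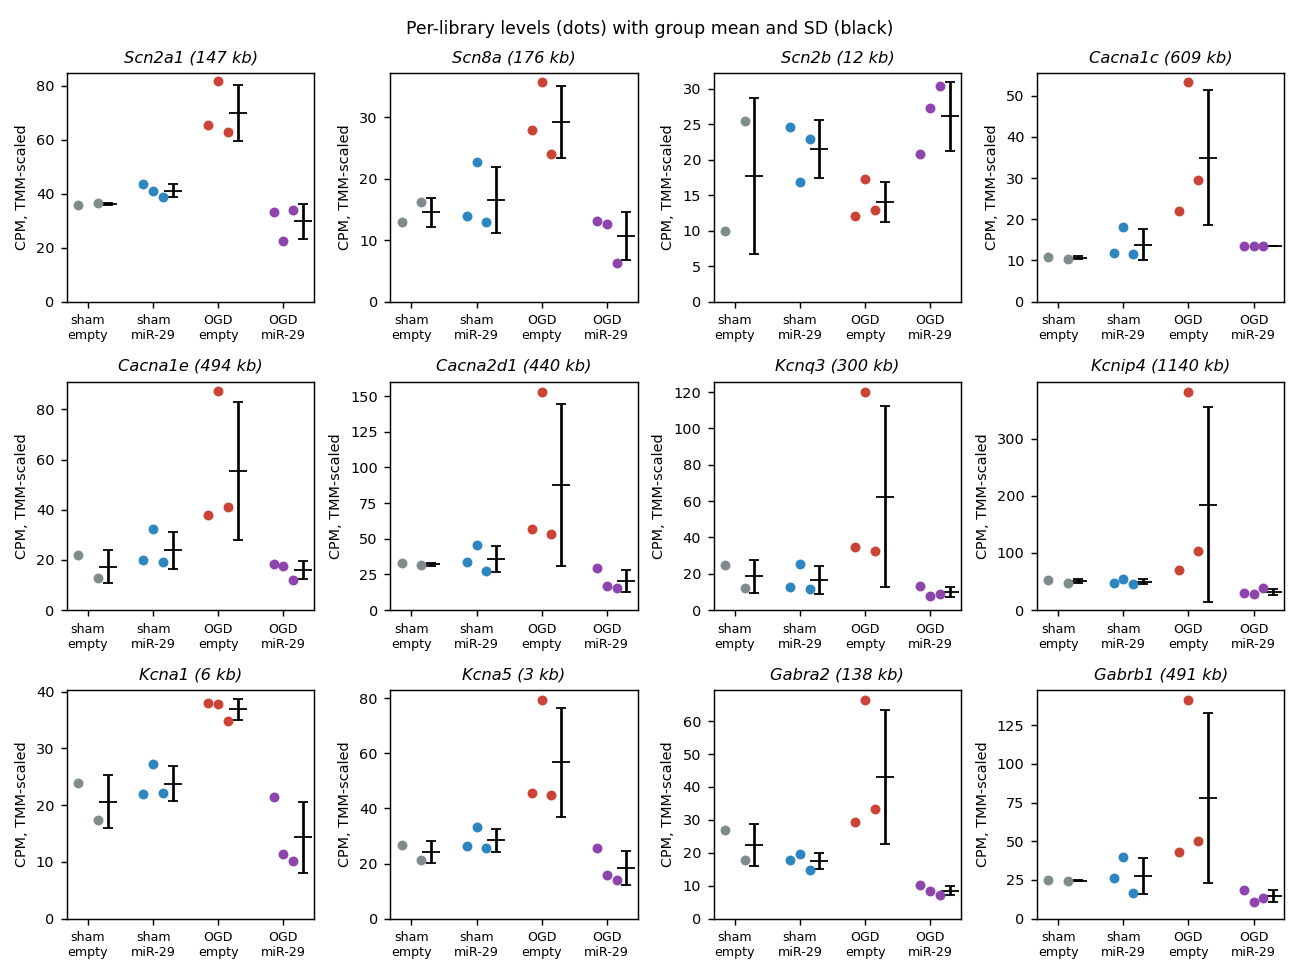
CPM (TMM-scaled, axes from 0) of 12 members in the 4 groups, each dot 1 library, with the group mean and SD in black. OGD-empty replicate 2 is the top dot of the long genes (Kcnip4 at 381.0 CPM, Cacna2d1 at 153.0) and of the short Kcna5 (79.5). Scn8a, also a long gene, and the short Kcna1 show closer OGD-empty dots, which all lie above OGD-miR-29.

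Among the GABA-A receptor genes that fell were the alpha genes Gabra2 and Gabra4, the beta genes Gabrb1 and Gabrb2, and the gamma gene Gabrg3. Gabra4 (-1.27, edgeR adjusted p = 0.00284), named after its value was seen, has Gabrb1 beside it at 2.75 times its count. Gabra2, an alpha subunit of synaptic receptors (chromosome 5, 70957597 to 71095849, minus strand), was at 26.9 and 17.9 CPM in sham-empty, 17.8, 19.6 and 14.9 in sham-miR-29, 29.5, 66.4 and 33.2 in OGD-empty against 10.1, 8.27 and 7.21 in OGD-miR-29. The OGD-miR-29 libraries were the lowest of all 11, and the difference from OGD-empty was -2.27 ± 0.30 (log2, SE; edgeR adjusted p = 0.000483). Gabrb1 went from 42.9, 141.0 and 49.9 to 18.7, 11 and 13.5 CPM, -2.38 ± 0.52 (edgeR adjusted p = 0.00845), and Gabrb2 to 26.5, 14.6 and 19.7 CPM, -1.64 ± 0.25 (edgeR adjusted p = 0.000542). Gabrg3 went from 35.1, 173.0 and 41.8 to 19.8, 19.3 and 16.8 CPM, -2.13 ± 0.60 (edgeR adjusted p = 0.0255), and -1.04 without OGD-empty replicate 2.

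Most of the members that fell were long genes. Of the 48 members of at least 100 kb, 37 fell and 0 rose, with a median of -1.62; of the 53 shorter ones, 11 fell and 4 rose, with a median of -0.29. Among all tested genes, 63.9% of those of at least 100 kb were called lower and 0.796% higher, with a median of -1.07, and 11.6% of the shorter ones were called lower and 20.3% higher, with a median of 0.17. All 15 members of over 400 kb fell, where 278 of 322 tested genes of that length did. After OGD with empty virus the order was the opposite, with a median of 1.35 in long and 0.15 in short members, against 0.80 and -0.11 over all genes of the same lengths.

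**Figure D4:**
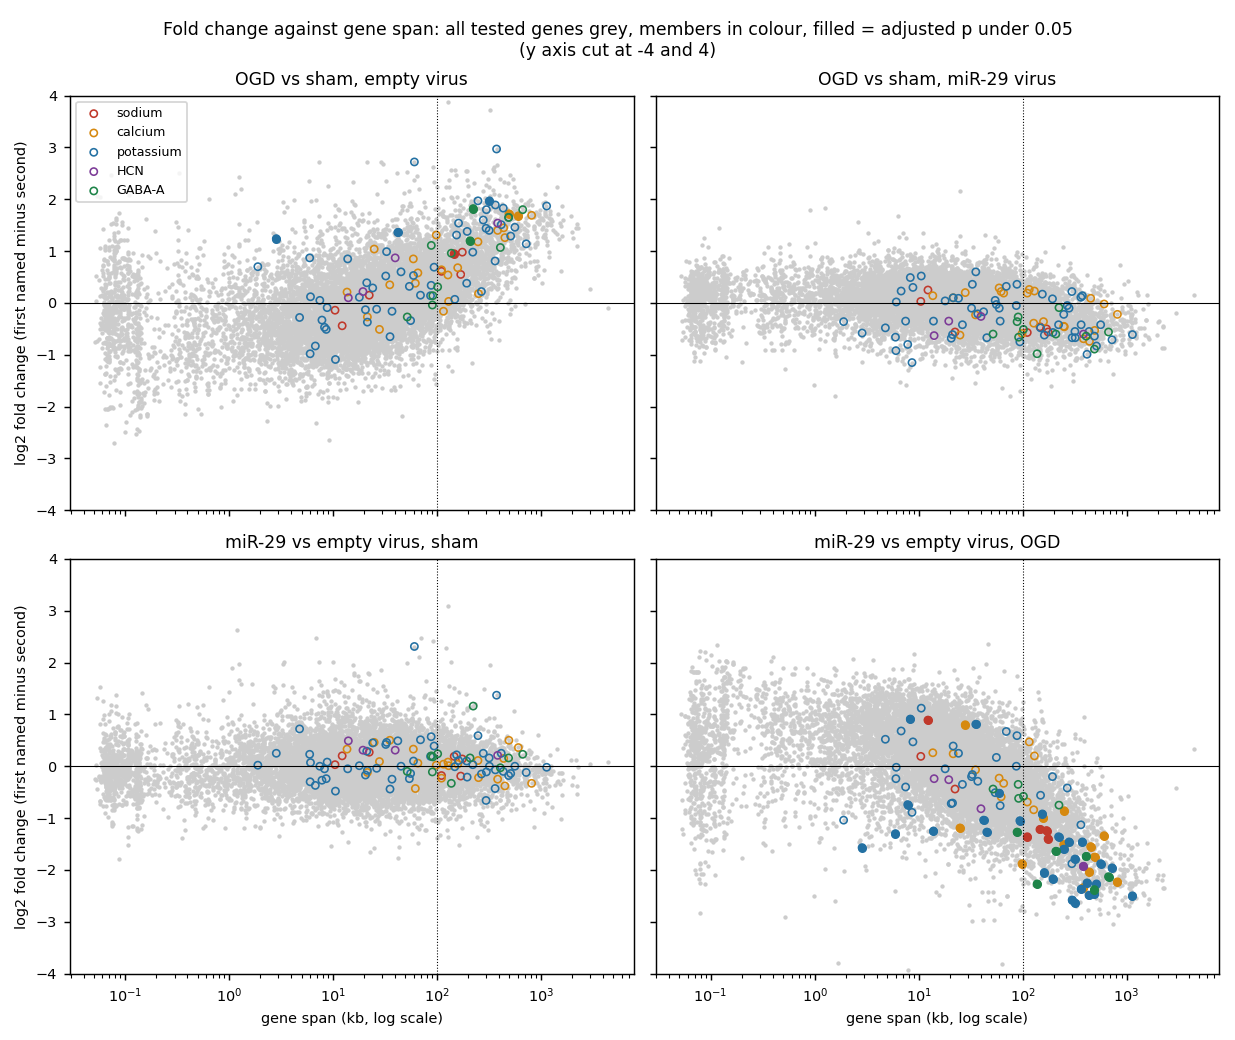
Log2 fold change (y axis, cut at -4 and 4) against gene span (x axis, kb, log scale) in the 4 comparisons, for all tested genes (grey) and the members by class (coloured, filled where the edgeR adjusted p was under 0.05); the dotted line marks 100 kb. In the comparison of miR-29 with empty virus after OGD, 37 of the 48 members right of the line were called lower.

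Removing that slope, by a smooth of expression on gene span in each library, ended some calls and kept others. With the trend removed and the block in the fit, 27 members were called lower and 7 higher, where 12.4% of all genes were called in each direction, and the median of the members was -0.24. Of the 52 members called before, 25 were still called. The sodium pores Scn1a, Scn2a1 and Scn8a (at -0.34, -0.45 and -0.52), Kcnma1 (-0.20), Kcnip4 (-0.28) and Kcnd2 (-0.43) were no longer called, and Cacna1a and Cacna1c turned to 0.20 and 0.28. Still called lower were Scn3a (-0.76, edgeR adjusted p = 0.0115), Kcnq3 (-1.18, edgeR adjusted p = 0.000597), Kcnq1 (-1.28, edgeR adjusted p = 3.99e-05), Gabra2 (-1.45, edgeR adjusted p = 2.49e-05), Gabrb1 (-0.76, edgeR adjusted p = 0.00664), Gabrb2 (-0.64, edgeR adjusted p = 0.0115) and Cacng3 (-1.19, edgeR adjusted p = 0.0153).

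The Kv1 genes Kcna1 to Kcna6 are short; apart from Kcna4 and Kcna5 they were picked out after their values had been seen. Kcna1, which encodes the axonal channel Kv1.1 on a span of 5.99 kb, was at 23.9 and 17.4 CPM in sham-empty, 22, 27.3 and 22.1 in sham-miR-29, 38.0, 37.9 and 34.8 in OGD-empty against 21.5, 11.4 and 10.1 in OGD-miR-29. The 3 OGD-empty libraries lay close together and above all others, and the difference between the viruses after OGD was -1.30 ± 0.25 (log2, SE; edgeR adjusted p = 0.000916), or -1.71 with the trend removed and the block (edgeR adjusted p = 2.63e-06). Kcna5, the shortest gene called, was at -1.57 ± 0.26 (edgeR adjusted p = 0.000571) and at -2.0 with the trend removed and the block (edgeR adjusted p = 1.84e-06). Kcna2 (Kv1.2) went from 18.1, 14.5 and 11.3 to 8.45, 1.58 and 8.17 CPM, -1.25 ± 0.35 (edgeR adjusted p = 0.0113), and Kcna4 (Kv1.4) from 9.11, 16.3 and 10.7 to 6.43, 7.09 and 7.69 CPM, -0.74 ± 0.27 (edgeR adjusted p = 0.0362). Kcna3, with Gm27008 at 2.57 times its count, was called with the block (-1.05, edgeR adjusted p = 0.0143) and not without it (-1.04, edgeR adjusted p = 0.108), and Kcna6 was not called (-0.20, edgeR adjusted p = 0.498). Kcna4 was not called without OGD-empty replicate 2 (edgeR adjusted p = 0.16), whereas Kcna1, Kcna2 and Kcna5 were, at -1.28, -1.31 and -1.26.

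**Figure D5:**
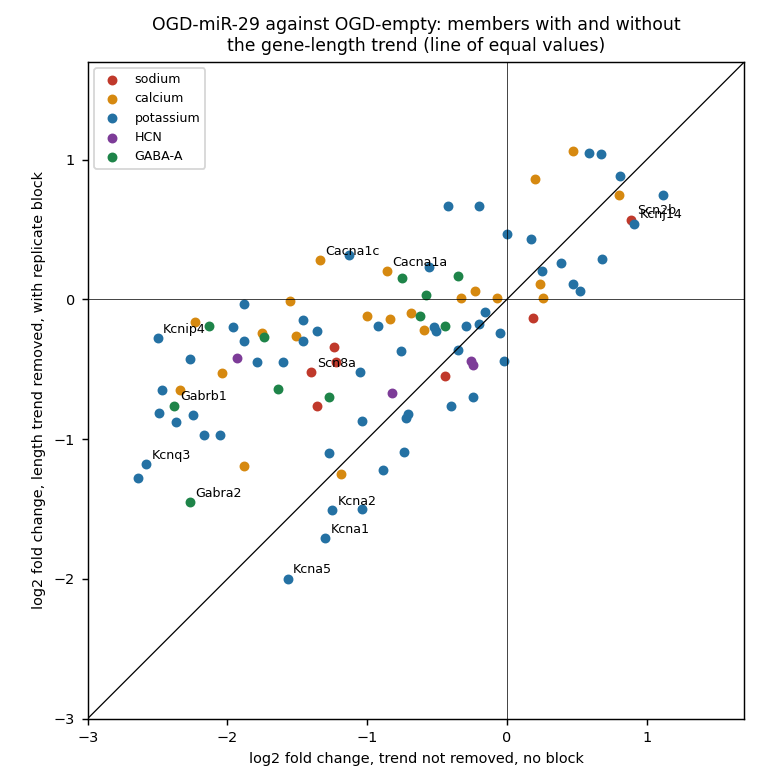
Log2 fold change of the 101 members between OGD-miR-29 and OGD-empty without (x axis) and with (y axis) removal of the gene-span trend and the replicate block; the line marks equal values. Long genes such as Kcnip4 (-2.50 to -0.28) move up towards 0, and the short Kcna1, Kcna2 and Kcna5 lie below the line, Kcna5 at -1.57 and -2.0.

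After OGD with miR-29 virus, 0 members were called by edgeR, DESeq2 or limma-voom, against sham-miR-29. Over all genes 0.0165% were called higher and 0.0% lower by edgeR. The groups did not overlap in 2 members that were higher and 22 that were lower after OGD, where 8.19% and 8.69% of all genes did not. At an unadjusted p under 0.05 there were 14 members by edgeR, 8 by DESeq2 and 16 by limma-voom. By edgeR these were 5 of 48 members of at least 100 kb and 9 of 53 shorter ones. Over all tested genes of those lengths, 194 of 1885 and 898 of 10040 had such a p. The median of the members was -0.36, with 71 of 101 below 0. Gabra2 had the smallest p: it differed by -0.98 ± 0.31 (log2, SE; edgeR adjusted p = 0.452), from 17.8, 19.6 and 14.9 to 10.1, 8.27 and 7.21 CPM, with no overlap. Kcna4 was at -0.80 ± 0.27 (edgeR adjusted p = 0.452). Whether the OGD effect differed between the viruses is tested by the interaction.

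In sham cultures the virus made no difference that could be called. Of the members 0 were called by edgeR, DESeq2 or limma-voom, and 0.0% of all genes were by edgeR. Without overlap 10 members were above and 3 below, where 10.6% and 11.9% of all genes were. At an unadjusted p under 0.05 there were 2, 1 and 1 members by the 3 tools. By edgeR 34 of 1885 tested genes of at least 100 kb and 364 of 10040 shorter ones had such a p. The median of the members was 0.04. The smallest p belonged to Kcns3, a silent Kv subunit with 0 and 1.16 CPM in sham-empty and 3.41, 5.00 and 3.09 in sham-miR-29, too few counts for a fold. Kcnf1, another silent subunit, followed (0.72 ± 0.34 on the log2 scale, edgeR adjusted p = 1.0), then Gabra3 (1.16 ± 0.56, edgeR adjusted p = 1.0). The standard errors of long genes were large, for example 0.67 for Kcnip4, which limits the size of difference that could be called.

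The OGD effect differed between the viruses for 12 members, all with a lower value under miR-29 (edgeR interaction). Over all genes 3.66% were called lower and 4.72% higher, and the median over members was -1.0 against -0.03. Of the 48 members of at least 100 kb 8 were called lower, where 12.8% of all tested genes of that length were. Among the 12 were Scn2a1, Scn8a, Cacna1c, Cacna1e, Kcnq1, Kcnn2, Kcna1, Kcna5, Kcnc1, Gabra2 and Gabrb2, of which Kcna1 is named although the rule did not reach it. For Scn2a1 the OGD effect was 0.95 with empty virus and -0.46 with miR-29, an interaction of -1.41 ± 0.31 (log2, SE; edgeR adjusted p = 0.0123); for Gabra2 the effects were 0.96 and -0.98, an interaction of -1.94 ± 0.45 (edgeR adjusted p = 0.0168). With the block, 28 members were called lower and 2 higher, where 8.03% and 7.33% of all genes were. Members called with it and not without included, of those named by the rule, Cacna2d1 (-2.32, edgeR adjusted p = 0.00997), Kcnma1 (-1.85, 0.00779), Gabrb1 (-2.58, 0.018) and Kcnb2 (-2.44, 0.0365). Also among them were Scn3a (-1.25, 0.0435), Cacnb4 (-1.63, 0.0496), Kcns3 (0.0325, no fold given) and, higher, the leak channel gene Kcnk1 (1.34, 0.0358). With the span trend removed as well, only Gabrb1 and Kcnk1 of these were called. OGD-empty replicate 2 was the highest library for Cacna2d1, Kcnma1, Gabrb1 and Kcnb2, and the block was not fitted without it. Without that library and without the block, Cacna2d1, Kcnma1, Gabrb1, Kcnb2 and Scn3a were called, and Cacnb4, Kcns3 and Kcnk1 were not. Leaving out sham-empty replicate 1 or 2 left 0; the other single libraries whose loss moved the count by over 1.5 times were OGD-empty replicates 1 and 2 (29 and 28 called), sham-miR-29 replicate 2 (3), OGD-miR-29 replicate 2 (5) and OGD-miR-29 replicate 3 (4).

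Seed matches to miR-29 were found in the 3′UTRs of 18 members. The 3′UTRs of GENCODE M21 were searched on the transcript strand for TGGTGCT (pairing with bases 2 to 8), GGTGCTA (bases 2 to 7 followed by A) and TGGTGCTA, which holds both and was counted once. Of the 101 members 18 (17.8%) had at least 1 match, against 20.4% of 10069 tested genes with a 3′UTR. The members held 25 matches in all and 0 of the longest kind. Per kb of 3′UTR they held 0.0847 matches against 0.142 over all these genes, with median 3′UTRs of 2130 and 1310 nt. The matches in 3 called members are shown with the match in capitals, as those in a short gene that fell with and without the span trend (Kcna5), in the alpha subunit with the smallest p (Gabra2) and in the voltage-gated Kcnc1. Kcnc1 held another match, not shown.
Kcna5: ggatgtactatTGGTGCTttgtgtctaag
Gabra2: ctgaacttttcTGGTGCTggagaaaggaa
Kcnc1: gtgtcaggattTGGTGCTcaaaattggag
The matches begin at base 619 of 804 in the 3′UTR of Kcna5, 1060 of 4205 in Gabra2 and 1818 of 5043 in Kcnc1. In sham cultures, where the virus differed with no OGD, the median difference was 0.08 in the 18 members with a match and 0.04 in the 83 without. After OGD it was -1.45 and -0.74, and the 3′UTRs differed in length as well, with medians of 5210 and 1860 nt. A match is a description of the sequence and no evidence of a site in use.

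Of the called channel partners most were lower with miR-29 after OGD, as most called members were, where 19.9% of all genes were called lower and 17.2% higher, and 63.9% of genes of at least 100 kb were called lower. Of 12 genes of the axon initial segment and channel complexes, 8 were lower with miR-29 than with empty virus and 0 higher, with a median of -1.62: Ank2 (-1.56) and Ank3 (-1.88), the ankyrins that anchor channels, Sptbn1 (-0.63), a spectrin, Fgf12 (-1.68), which binds sodium channels, Dpp6 (-2.0) and Dpp10 (-1.87), the Kv4 partners, the sodium leak channel Nalcn (-1.10) and Cntnap2 (-2.35), which clusters Kv1 channels. Each of the 8 spans over 100 kb. Of 12 genes of the inhibitory synapse and chloride balance, 6 were lower, among them the scaffold gene Gphn (-1.52), Nlgn2 (-1.31), Gad2 (-0.77), the chloride exporter gene Slc12a5 (-0.66) and Gabbr2 (-1.13). Gabarap, which encodes a trafficking protein of GABA-A receptors on 3.81 kb, was higher (1.14). Of 11 pump and calcium-handling genes, 7 were lower and 0 higher, with Ryr2 lowest at -1.81 and Atp1b2, on 6.21 kb, at -1.09; Atp2b1 (-1.14), Atp2b2 (-0.98), Slc8a1 (-1.53) and Itpr1 (-0.81) were also lower.

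Cell type markers moved with the groups too. The 8 neuron markers, all in the table, summed to 862 to 898 CPM in sham-empty, 840 to 1010 in sham-miR-29, 1040 to 1310 in OGD-empty and 742 to 873 in OGD-miR-29. Between the viruses after OGD 4 of them fell (Rbfox3, Syt1, Map2 and Snap25) and 3 rose (Tubb3, Nefl and Nefm), beside the same 19.9% and 17.2% of all genes. Rbfox3, Syt1 and Map2 span over 100 kb, where 63.9% of genes were called lower. Tubb3, Nefl and Nefm are shorter, and so is Snap25, which fell on a span of 69.0 kb. The sum of 6 astrocyte markers was 96.6 to 110 CPM in OGD-empty and 62.0 to 75.9 in OGD-miR-29, and that of 3 microglia markers was 18.8 to 28.0 and 32.1 to 36.1. Excitatory neuron markers (4) were at 33.4 to 37.0 and 21.7 to 26.1 CPM, interneuron markers (5) at 211 to 301 and 137 to 247, oligodendrocyte markers (4) at 14.1 to 16.1 and 16.3 to 20.9, fibroblast or mural markers (2) at 5.36 to 9.03 and 5.88 to 8.65, and dividing progenitor markers (2) at 13.9 to 15.3 and 9.74 to 18.3. Rows for Gfap, C1qa, Tyrobp, Col1a1, Pdgfrb, Top2a and the 3 endothelial markers Cldn5, Pecam1 and Kdr were not among those analysed. The part of these shifts in the channel results was not tested.

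In the authors' deposited table of OGD-empty against sham-empty, 0 of the 101 members had a false discovery rate under 0.05, with a lowest value of 0.0903, and 37 had a p-value under 0.05. The authors' deposited table of OGD-miR-29 against sham-empty likewise had 0, with a lowest rate of 0.97, and 7 p-values under 0.05. Over all 12145 genes of each table, 1578 and 558 had a p-value under 0.05, and 6 and 2 a false discovery rate under 0.05. Medians of the members in the authors' deposited tables were 0.72 and -0.14 (log2). The authors' deposited table gives Scn2a1 a log2 fold change of 1.34 with OGD and empty virus and 0.04 with OGD and miR-29, both against sham-empty. The column headers of the authors' deposited tables do not say which sham-empty libraries were used, whereas 2 were used in the fits above.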

How the data were processed

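The members and gene lists were chosen with earlier results of these data known. The authors deposited raw counts per gene symbol; per the submitters' processing notes STAR 2.5.0a, featureCounts 1.4.3-p1, edgeR and build mm10 were named, while annotation, counting region and strand setting are not stated in the labels. Deposited tables of the authors hold log2 fold changes, a likelihood ratio score, p-values and false discovery rates, per the file headers. Counts of the 11 libraries were fitted together with edgeR 4.0.16 in R 4.3.3 (TMM scaling, filterByExpr, robust quasi-likelihood F test, 4 group means, no block); 12119 genes were tested, p-values were adjusted by Benjamini-Hochberg over all of them, and SE was the log2 fold change over the root of F. The pipeline was tested on simulated data. Symbols were matched to GENCODE M21: all 101 members and 11948 rows. Alternatives were a replicate block, removal of a lowess trend on log10 span (with or without the block), DESeq2 1.42.0 size factors and test, limma-voom 3.58.1, no filter, no mitochondrial rows, fits of the compared groups only, genes with no neighbour, and each library or day left out. The design text states that replicates were dissected on distinct days. That libraries of the same number in the 4 groups share a day was assumed for the block and the days left out. Deviations of same-numbered libraries of different groups correlated at -0.0898 to 0.232, and those of differently numbered ones at -0.245 to 0.201. Named genes were a fixed list of key members, up to 4 called members per class and direction with the largest fold, the 3 smallest p where none was called, called members opposite to their class, and the longest and shortest called. Some genes that this rule or the lists named are not reported here. Replicates are cultures of separate days. Sequences came from RefSeq (miRNAs) and GENCODE (3′UTRs).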

Additional observations from a re-analysis of the deposited data

Results flagged for a closer look

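The effect of OGD differed between the viruses, by the edgeR interaction test at an adjusted p under 0.05, for 12 members. Among them the interaction, as the log2 effect of OGD under miR-29 minus that under empty virus, was -2.64 for Kcnq1, -2.50 for Kcnn2, -2.25 for Cacna1e, -1.94 for Gabra2, -1.82 for Kcna5, -1.79 for Gabrb2 and -1.70 for Cacna1c. It was -1.54 for Scn8a, -1.54 for Kcnc1, -1.53 for Kcna1 and -1.41 for Scn2a1. All 12 had a lower value under miR-29, where 3.66% of all genes were called lower and 12.8% of those of at least 100 kb. With the gene-span trend removed and the replicate block, 3.42% of all genes were called lower and 4.54% higher. In that fit 5 of these 12 were still called: Kcnq1, Gabra2, Kcna1, Kcna5 and Kcnc1. Without either sham-empty library none of the 12 was, where sham-empty then held 1 library, assumed to vary like the other groups.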

How the results depend on the processing

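With 2 to 3 libraries a group and medians of 12 to 96 counts per member, small differences were not detectable. In simulated counts, the test of miR-29 against empty virus after OGD called 34 of 100 genes changed by 1 on the log2 scale. It called 96 of 100 changed by 2. The simulation held no trend on gene span and no effect of day, and the other comparisons were not simulated. The 0 members called in sham cultures and after OGD with miR-29 virus stayed at 0 under every alternative run. After OGD with empty virus the 8 calls became 26 with the replicate block, 4 with the span trend removed with or without the block, 5 among genes with no neighbour (fewer genes tested), 0 with only the compared groups in the fit, 5 with limma-voom and 18 with DESeq2; leaving out libraries or days gave 0 to 26. Named there were sham-empty replicates 1 and 2 (0 each), OGD-empty replicate 1 (26), OGD-miR-29 replicates 1 and 2 (5 each) and the days 1, 2 and 3 (0, 1 and 0). For miR-29 against empty virus after OGD the 52 calls became 32 with the span trend removed and 34 with the block as well. Among genes with no neighbour only 14 of the 52 were tested, and 12 stayed called. Of the calls after OGD with empty virus and in the interaction, 4 and 6 were tested there, and all stayed called. With libraries left out, 32 to 54 members were called between the viruses after OGD, lowest without OGD-miR-29 replicate 3. The replicate block (pairing by number) alone gave 58 there. The 12 interaction calls became 30 with the block, 3 with the trend removed (9 with the block as well), 6 among genes with no neighbour, 27 with DESeq2 and 0 to 29 with libraries or days left out (0, 1 and 0 without the days). Cacna1a and Cacna1c turned to 0.21 and 0.28 with the trend removed and to 0.20 and 0.28 with the block as well; the cause of the other changes was not tested. The block ended no call in the 3 comparisons that had any; it added 18 after OGD with empty virus, 6 between the viruses after OGD and 18 in the interaction.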

Other observations

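Picked out after their values had been seen, 5 members that edgeR did not call were higher with miR-29 than with empty virus after OGD once the span trend was removed with the block, among them 2 alpha2delta subunit genes. Cacna2d4 was at 14.8, 14 and 14.5 CPM in OGD-empty against 17.8, 21.7 and 21.2 in OGD-miR-29, 0.47 before and 1.06 with the trend removed (edgeR adjusted p = 0.000655), and Cacna2d2 was at 0.20 before and 0.86 after (edgeR adjusted p = 0.0136). The other genes that were higher were Kcnab1 (-0.42 and 0.67), Kcng2 (0.67 and 1.04) and Kcnu1 (0.59 and 1.05). Each of the 5 has a neighbour with 0.876 to 1.53 times its count (Adipor2, Tmem115, Ssr3, Pqlc1 and Hgsnat in the order given). Another 4 members were newly called lower in that fit: Kcna3 (-1.50), Kcnmb3 (-0.85), Kcnv1 (-1.22) and Scn3b (-0.55). In all 7 members were called higher there and 27 lower, where 12.4% of all genes were called in each direction.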
